A study of Mus musculus with 2 samples.

Results

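The Sv2 family comprises Sv2a, Sv2b and Sv2c, the 3 genes in the mouse that encode synaptic vesicle glycoprotein 2, and all 3 were found by symbol among the 21884 protein-coding genes counted. Their chromatin accessibility was measured by single-cell ATAC-seq, in which the transposase Tn5 cuts open DNA inside nuclei and a droplet barcode ties each fragment to 1 nucleus. The brains came from wild-type C57BL/6J male mice of 8 to 12 weeks, taken 48 h after surgery and without olfactory bulbs and cerebellum. In the stroke group a filament closed the middle cerebral artery for 1 h before reperfusion, and the ipsilateral hemispheres of 4 brains were pooled into 1 library. In the sham group the filament was inserted without lasting occlusion, and 4 brains were pooled into 1 library. With 1 library per condition no test between sham and stroke was possible, so each value is given with an exact 95% interval that covers counting error only.

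SV2 proteins are membrane glycoproteins with the fold of a transporter that sit in synaptic vesicles and in the granules of endocrine cells. They are known to interact with the calcium sensor synaptotagmin and to keep the readily releasable vesicles competent for release. SV2A is found at most synapses and is the binding site of the antiseizure drug levetiracetam, SV2B is best known from forebrain glutamatergic terminals, and SV2C is best known from the basal ganglia. SV2 proteins also serve as entry receptors of botulinum neurotoxin A. The ischemic territory of the middle cerebral artery takes in cortex and striatum.

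Barcodes that Cell Ranger called as cells and that had over 20% of their fragments in peaks were kept, which left 6817 of 6979 in sham and 5054 of 8740 in stroke. The kept nuclei held 73449269 fragments in sham and 52773775 in stroke, with a median of 10353 and 9898 per nucleus and a median of 38.8% and 33.2% of fragments in peaks. In the stroke library the median percent in peaks over all called barcodes was 24.8%, and 42 barcode sequences were kept in both libraries. Nuclei were classed by the accessibility of marker genes in which no Sv2 gene was included. The nucleus gate used each nucleus alone. A neighbourhood gate, added after the data were seen, used marker fragments summed over each nucleus and its nearest neighbours, 30 nuclei in all. It was added because markers held out as a check showed that the nucleus gate mixed the rarer classes: Arpp21, a glutamatergic check marker, reached 334 CPM in its myeloid class beside 342 CPM in its glutamatergic class. CPM are fragments over the gene body plus 2 kb upstream, scaled to 1000000 fragments of the same nuclei, and levels are given in this unit.

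In the neighbourhood gate the held-out markers were highest in their own class for 3 of 3 glutamatergic, 3 of 5 GABAergic, 5 of 5 astrocyte, 3 of 4 oligodendrocyte, 4 of 4 oligodendrocyte precursor (OPC), 5 of 5 myeloid and 5 of 6 vascular genes. Among neuronal subclasses they were highest for 2 of 3 upper layer, 3 of 3 deep layer, 5 of 5 spiny projection, 3 of 4 Lhx6 interneuron and 4 of 4 Adarb2 interneuron genes. In the nucleus gate 2 of 4 OPC, 3 of 6 vascular and 4 of 4 Lhx6 interneuron markers were highest in their own class. For all other classes, glutamatergic and GABAergic nuclei among them, the counts were the same in both gates. The neighbourhood gate gave 927 glutamatergic nuclei in sham and 332 in stroke, 1286 and 689 GABAergic, 444 and 569 astrocyte, 112 and 205 oligodendrocyte, 160 and 163 OPC, 25 and 226 myeloid, and 191 and 278 vascular nuclei. It left 53.9% of sham and 51.3% of stroke nuclei without a class, and Sv2b stood at 188 CPM in these ungated nuclei of either library, above the GABAergic level and below the glutamatergic one. Values are from the neighbourhood gate unless the nucleus gate is named, and headline comparisons are given for both.

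The genes differ in size and base composition. In mm10, Sv2a (ENSMUSG00000038486.9) lies on the plus strand of chromosome 3 from 96181151 to 96195521 and spans 14371 bp. Sv2b (ENSMUSG00000053025.13) lies on the minus strand of chromosome 7 from 75114894 to 75309262 and spans 194369 bp. Sv2c (ENSMUSG00000051111.16) lies on the minus strand of chromosome 13 from 95954594 to 96132577 and spans 177984 bp. Fragments over Sv2c also include those over Gm20075, Gm17190, Gm23955 and Gm29543, and those over Sv2b include Gm24858 and the start of 1500012K07Rik, a transcript of the plus strand that overlaps the Sv2b promoter. ATAC-seq fragments carry no strand, so these cannot be told apart from the Sv2 genes. The 250 bases before each gene's start are given 5′ to 3′ on the strand of the gene, read from the RefSeq copy of the mm10 assembly, because the promoter and the gene body of Sv2b gave different class patterns. Capitals mark a match to GGGCGG, the GC box bound by Sp1, on either strand. The stretches are chr3:96180901-96181150 on the plus strand, chr7:75309263-75309512 on the minus strand and chr13:96132578-96132827 on the minus strand.
Sv2a promoter: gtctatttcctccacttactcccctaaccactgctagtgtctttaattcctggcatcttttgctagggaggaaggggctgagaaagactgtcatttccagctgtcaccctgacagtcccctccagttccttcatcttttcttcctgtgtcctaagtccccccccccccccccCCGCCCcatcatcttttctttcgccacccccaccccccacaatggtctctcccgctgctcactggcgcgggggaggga
Sv2b promoter: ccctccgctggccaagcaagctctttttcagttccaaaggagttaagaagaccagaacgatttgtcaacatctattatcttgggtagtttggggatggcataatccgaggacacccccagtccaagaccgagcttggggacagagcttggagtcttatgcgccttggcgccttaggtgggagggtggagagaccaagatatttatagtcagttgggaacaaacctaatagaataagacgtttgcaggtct
Sv2c promoter: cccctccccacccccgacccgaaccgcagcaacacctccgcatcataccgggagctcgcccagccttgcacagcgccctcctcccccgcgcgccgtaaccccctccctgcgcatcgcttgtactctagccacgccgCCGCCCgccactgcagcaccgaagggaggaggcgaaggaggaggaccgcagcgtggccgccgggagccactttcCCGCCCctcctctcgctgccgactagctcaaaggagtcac

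The Sv2c stretch had 70.8% GC, the Sv2a stretch 57.2% and the Sv2b stretch 48.8%, beside a median of 54% over the same 250 bases of 21884 genes. GGGCGG matched 2 times before Sv2c, 1 time before Sv2a and 0 times before Sv2b, and 39% of all such stretches held it. None of the 3 stretches held TGACGTCA (CREB site), TGANTCA (a loose AP-1 pattern in which N is any base), TAATTA (homeodomain site) or CAGATG (an E-box of neurogenic bHLH factors), which were found in 1.97%, 6.06%, 4.98% and 13% of all stretches. These matches describe the letters in a window and are not evidence of binding.

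In all kept nuclei together, Sv2b had the most fragments and Sv2a the densest signal. Sv2b stood at 162 (159–165) in sham and 149.7 (146–153) in stroke, Sv2c at 90.8 (88.6–93.003) and 96.4 (93.7–99.1), and Sv2a at 31.8 (30.5–33.1) and 24.9 (23.6–26.3). Per kb of counted sequence Sv2a came first and Sv2b stayed above Sv2c: Sv2a stood at 1.94 CPM per kb in sham and 1.52 in stroke, Sv2b at 0.825 and 0.762, and Sv2c at 0.504 and 0.535. The median gene stood at 0.670 and 0.664 per kb, and 83.3% of genes in sham and 79.3% in stroke were below Sv2a. Over the promoters alone, 1 kb on either side of the start, the 3 genes were closer to one another, with 7.62 (7.01–8.28) in sham and 6.46 (5.79–7.19) in stroke for Sv2a, 5.49 (4.96–6.05) and 4.28 (3.74–4.88) for Sv2b, and 6.04 (5.50–6.63) and 5.78 (5.15–6.47) for Sv2c.

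Sv2b, the paralog of glutamatergic terminals, was most accessible in glutamatergic nuclei, and Sv2c was most accessible in GABAergic nuclei. In glutamatergic nuclei Sv2b stood at 218 (209–227) in sham and 225 (211–240) in stroke, and in GABAergic nuclei at 90.6 (85.8–95.6) and 103.9 (96.6–112). Its level was 2.41 times higher in glutamatergic nuclei in sham (2.25–2.57) and 2.16 times in stroke (1.96–2.39). For Sv2c the glutamatergic level was 58.7 (54.2–63.4) in sham and 79.9 (71.4–89.1) in stroke, beside GABAergic levels of 149.7 (144–156) and 150.04 (141–159), so the glutamatergic to GABAergic ratio was 0.392 (0.359–0.428) and 0.532 (0.469–0.603). For each of these genes the intervals of the 2 classes did not overlap in either library. Past 1.5-fold in both libraries, 5.01% of 16125 genes were higher in glutamatergic and 5.69% in GABAergic nuclei.

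The nucleus gate gave the same directions between glutamatergic and GABAergic nuclei. Sv2b stood at 220 (211–228) and 214 (202–227) in glutamatergic nuclei and was 2.096 times the GABAergic level in sham (1.96–2.24) and 1.95 times in stroke (1.78–2.14). Sv2c had a glutamatergic to GABAergic ratio of 0.549 (0.505–0.596) in sham and 0.568 (0.507–0.636) in stroke. In that gate 3.28% of genes passed the fold as higher in glutamatergic and 3.25% as higher in GABAergic nuclei. Sv2a, the paralog used by most synapses, passed the fold in neither gate: its ratio was 0.859 (0.7504–0.983) in sham and 0.700 (0.550–0.886) in stroke in the neighbourhood gate, and 0.815 (0.706–0.941) and 0.825 (0.659–1.03) in the nucleus gate.

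Summed over classes, all 3 genes were lower in non-neuronal than in neuronal nuclei in the neighbourhood gate. The neuronal level of Sv2a was 2.02 times higher in sham and 1.73 times in stroke, that of Sv2b 2.38 and 2.26 times, and that of Sv2c 2.58 and 1.71 times, where 9.64% of genes were higher in neurons past 1.5-fold in both libraries. In the nucleus gate the same ratios were 1.07 and 1.302, 0.966 and 1.18, and 1.304 and 1.32, all under the fold. There 0.406% of all genes were higher in neurons past 1.5-fold in both libraries. Sv2a stood at 14.3 (10.6–19.02) in sham astrocytes and 15.4 (12.2–19.2) in stroke astrocytes, below glutamatergic and GABAergic nuclei in both libraries. Sv2b stood between 50.8 (astrocyte) and 79.8 (myeloid) in sham and between 51.8 (vascular) and 71.4 (myeloid) in stroke, and the intervals of most of these classes overlapped. Sv2c stood at 30.8 (25.1–37.3) in sham astrocytes and 53.5 (47.3–60.3) in stroke astrocytes, below GABAergic nuclei in both libraries. In stroke oligodendrocytes it reached 97.8 (83.3–114), an interval that overlaps that of Lhx6 interneurons. Several non-neuronal classes stood above the glutamatergic level of Sv2c, with intervals that overlapped it: oligodendrocytes at 65.2 (48.0–86.4) and myeloid nuclei at 84.8 (49.4–136) in sham, and in stroke all non-neuronal classes but astrocytes, with OPC at 81.8 (67.7–97.8), myeloid nuclei at 84.1 (74.4–94.8) and vascular nuclei at 81.3 (66.3–98.7). Sv2a in stroke vascular nuclei, 28.7 (20.1–39.7), likewise stood above the stroke glutamatergic level of 24.7 (20.1–29.98), with overlap.

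**Figure D1:**
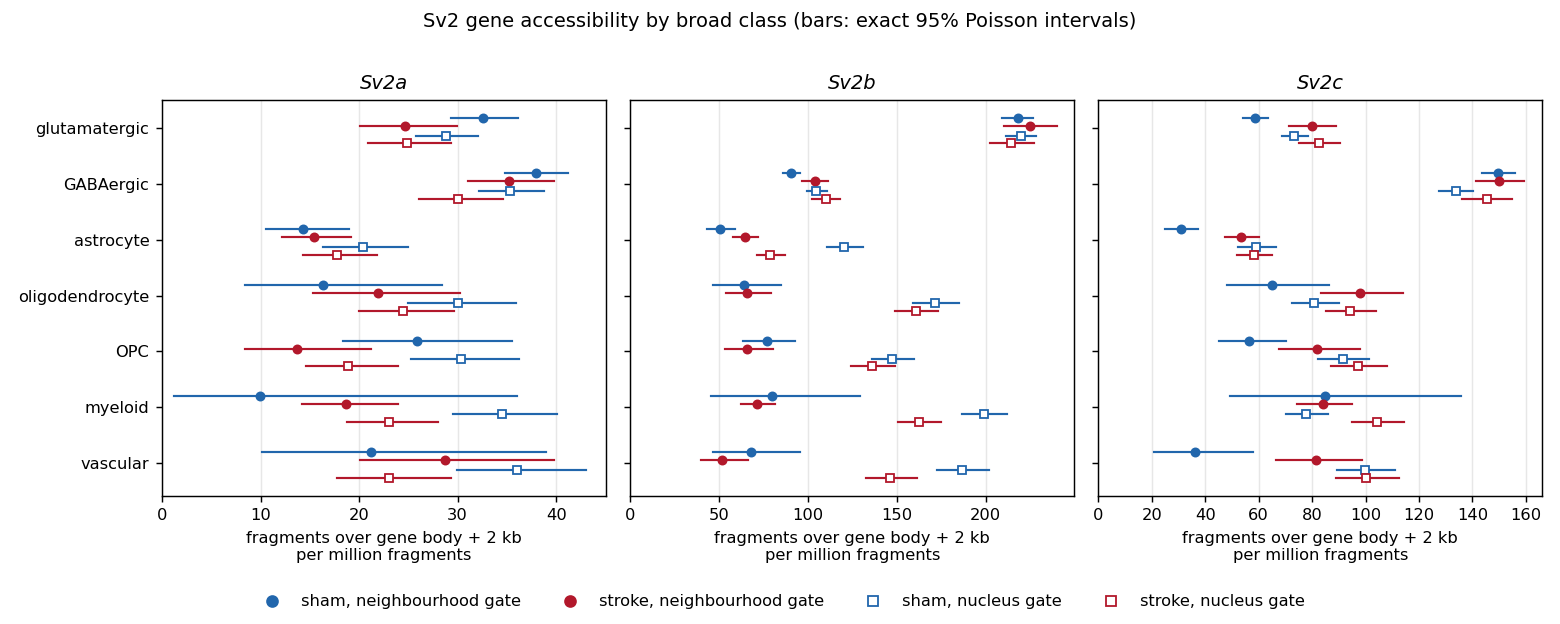
Fragments over gene body plus 2 kb upstream in CPM (horizontal axes) for Sv2a, Sv2b and Sv2c in 7 broad classes, with sham in blue, stroke in red, the neighbourhood gate as filled circles, the nucleus gate as open squares, and bars for exact 95% Poisson intervals. Sv2b sits between 214 and 225 in glutamatergic nuclei under both gates, while its values in glial, myeloid and vascular classes are higher under the nucleus gate than under the neighbourhood gate.

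Within GABAergic nuclei Sv2b and Sv2c were graded, and the intervals of Sv2a overlapped. Spiny projection neurons are the main output cells of the striatum, Lhx6 interneurons arise from the medial ganglionic eminence, and Adarb2 interneurons arise mainly from the caudal ganglionic eminence. Sv2b stood at 129.7 (122–138) in sham and 159.9 (145–176) in stroke in spiny projection nuclei, at 58.9 (49.8–69.2) and 83.2 (69.2–99.2) in Adarb2 interneurons, and at 34.8 (28.6–42.0) and 42.7 (33.8–53.2) in Lhx6 interneurons. These 3 levels kept this order with intervals that did not overlap in either library. The Lhx6 level was also below that of astrocytes in both libraries, so the lowest Sv2b level of any class with more than 50 fragments in each library was in neurons. Sv2b was 3.73 times higher in spiny projection than in Lhx6 nuclei in sham (3.05–4.58) and 3.75 times in stroke (2.94–4.83), where 7.39% of 13431 genes were higher in spiny projection nuclei past 1.5-fold in both libraries.

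Sv2c, the paralog of the basal ganglia, had the same order among these subclasses. It stood at 177 (167–187) in sham and 194 (178–212) in stroke in spiny projection nuclei, at 144 (129.5–159.5) and 133.6 (116–154) in Adarb2 interneurons, and at 100.3 (89.5–112) and 98.9 (85.1–114) in Lhx6 interneurons, again with no overlap of intervals within a library. The nucleus gate gave the same order of the values for Sv2b and Sv2c, but Adarb2 and Lhx6 intervals overlapped for Sv2b in sham and for Sv2c in both libraries, and spiny projection and Adarb2 intervals for Sv2c in stroke. The spiny projection to Lhx6 ratio was 1.76 (1.56–2.00) in sham and 1.96 (1.65–2.34) in stroke, past 1.5-fold, and 1.49 (1.28–1.74) and 1.41 (1.17–1.70) in the nucleus gate, under it. For Sv2b the nucleus gate gave 2.33 (1.91–2.86) and 2.56 (2.01–3.30), where 3.88% of genes were higher in spiny projection nuclei past the fold. Sv2a stood at 36.4 in sham and 28.4 in stroke in spiny projection nuclei, at 38.4 and 45.0 in Adarb2 interneurons and at 39.3 and 38.4 in Lhx6 interneurons, and all of these intervals overlapped within a library. In stroke the spiny projection interval was 22.3–35.6 and that of Adarb2 interneurons 34.8–57.1, and overlap of separate intervals does not show equal levels. The nucleus gate gave the other order in stroke, 38.1 (31.3–45.9) in spiny projection and 22.1 (14.7–32.0) in Adarb2 nuclei.

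Among glutamatergic nuclei Sv2b was at or above its upper layer level in deep layer nuclei, with or without overlap of the intervals, and the order for Sv2c changed with the gate and the library. Sv2b stood at 214 (200–228) in 362 upper layer nuclei and 215 (191–242) in 107 deep layer nuclei of sham. In stroke it stood at 148.4 (110–196) in 33 upper layer nuclei and 257 (232–284) in 120 deep layer nuclei, so the intervals overlapped in sham and did not in stroke. Under the nucleus gate it stood at 191 (181–202) in upper and 249.6 (234–266) in deep layer nuclei of sham, without overlap, and at 200.1 (183–219) and 237 (217–257) in stroke, with overlap. Sv2c stood at 54.5 and 67.1 in sham and at 78.8 and 71.1 in stroke in upper and deep layer nuclei, and the intervals overlapped in both libraries. The nucleus gate gave the other order in sham, 82.3 (75.4–89.6) in upper and 60.7 (53.3–68.8) in deep layer nuclei without overlap, and 74.97 (64.5–86.6) and 87.7 (76.1–100.4) in stroke. Only 49 Sv2b fragments and 5 Sv2a fragments lay behind the upper layer values of stroke.

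**Figure D2:**
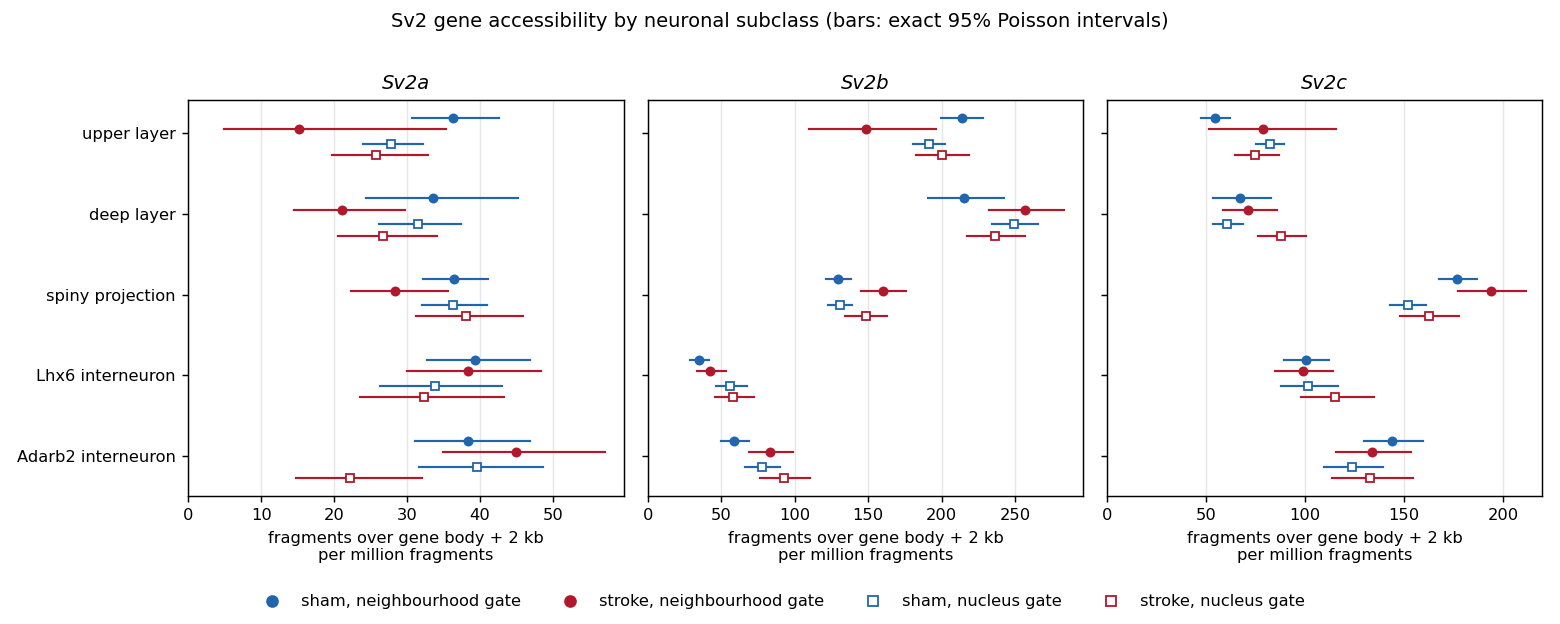
Fragments over gene body plus 2 kb upstream in CPM (horizontal axes) for Sv2a, Sv2b and Sv2c in 5 neuronal subclasses, with colours, symbols and bars as in the plot of broad classes. Sv2b falls from spiny projection over Adarb2 to Lhx6 nuclei in both libraries, with 34.8 to 42.7 in Lhx6 interneurons, and Sv2a shows no such order.

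Promoters were counted at the outermost annotated start of each gene. Protein-coding transcripts also start at 75220019 in Sv2b and at 96088866 in Sv2c, and these starts lay outside the promoter counts. At the outermost start the promoter carried little of the glutamatergic excess of Sv2b. Its promoter stood at 6.19 (4.803–7.84) in sham and 5.92 (3.79–8.80) in stroke in glutamatergic nuclei and at 4.37 (3.37–5.57) and 5.27 (3.73–7.23) in GABAergic nuclei, with overlapping intervals in both libraries. Within GABAergic nuclei the Sv2b promoter stood at 6.57 (4.85–8.72) and 8.82 (5.59–13.2) in spiny projection nuclei and at 1.28 (0.348–3.27) and 1.62 (0.334–4.74) in Lhx6 interneurons, which rests on 4 and 3 fragments. The Sv2c promoter stood at 14.8 (12.1–17.9) in sham and 9.202 (5.896–13.7) in stroke in spiny projection nuclei, at 6.72 (3.92–10.8) and 10.7 (6.14–17.4) in Adarb2 interneurons and at 2.56 (1.103–5.04) and 3.78 (1.52–7.79) in Lhx6 interneurons. The spiny projection intervals were above the glutamatergic one, 5.28 (4.01–6.82) in sham and 4.19 (2.44–6.71) in stroke, only in sham. The Sv2a promoter stood at 7.46 (5.93–9.26) and 7.64 (5.19–10.8) in glutamatergic nuclei and at 8.06 (6.69–9.64) and 9.43 (7.32–11.95) in GABAergic nuclei.

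To locate the class difference inside each locus, cut sites were counted in windows of 500 bp over the gene and 20 kb on either side. A window was called open at 5 times the cut density of the median window of its locus over all kept nuclei. Sv2a had 7 open windows of 110, Sv2b 14 of 470 and Sv2c 19 of 437, and they held 40.4%, 17.5% and 29.9% of the cut sites. Of the 7 at Sv2a, 5 lay outside the gene at the neighbours Otud7b, Sf3b4 and Bola1, and the 2 inside, at the promoter and in an intron 1599 bp from the start, had glutamatergic to GABAergic ratios of 1.046 (0.805–1.35) and 0.985 (0.755–1.28) with both libraries pooled.

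Glutamatergic cut sites exceeded GABAergic ones in 9 of the 14 open windows of Sv2b, and the reverse held in 2, by intervals that left out 1 with the libraries pooled. The 2 windows at the Sv2b promoter were not among the 9. With each library taken alone, 8 windows were higher in glutamatergic nuclei in both libraries and 0 in GABAergic nuclei, and the nucleus gate gave 9 and 0. At Sv2c, 3 of 19 open windows were higher in glutamatergic and 9 in GABAergic nuclei in the pooled counts. In both libraries alone these were 2 and 3, and 2 and 2 in the nucleus gate. Sequences of 6 intronic windows are given next, chosen after the values were seen, because these windows were among those with the largest differences between neuronal classes or the most cut sites. Each is the 200-base stretch with the most pooled cut sites near its window that touches no exon, 5′ to 3′ on the minus strand on which both genes are read. Capitals mark matches to the 5 motifs named above on either strand.

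Sv2b windows A, B and C are chr7:75302610-75302809, chr7:75272034-75272233 and chr7:75265293-75265492.
Sv2b intronic window A: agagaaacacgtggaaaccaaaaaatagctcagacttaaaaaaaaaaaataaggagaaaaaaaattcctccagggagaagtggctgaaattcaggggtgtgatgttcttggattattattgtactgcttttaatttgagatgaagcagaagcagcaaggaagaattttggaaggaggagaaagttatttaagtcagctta
Sv2b intronic window B: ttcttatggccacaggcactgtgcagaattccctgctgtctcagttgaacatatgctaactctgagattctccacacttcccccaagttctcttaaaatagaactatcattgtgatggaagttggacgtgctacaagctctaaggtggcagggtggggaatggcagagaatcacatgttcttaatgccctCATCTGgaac
Sv2b intronic window C: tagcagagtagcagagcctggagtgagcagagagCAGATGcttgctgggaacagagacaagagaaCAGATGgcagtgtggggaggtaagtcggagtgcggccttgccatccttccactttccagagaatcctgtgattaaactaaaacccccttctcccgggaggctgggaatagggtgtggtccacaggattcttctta

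Window A, centred 6512 bp into the gene, had more cut sites in glutamatergic than in GABAergic nuclei in both libraries and both gates. It had 6.98 cut sites per 1000000 (6.07–7.99) in glutamatergic nuclei and 0.430 (0.259–0.672) in GABAergic nuclei with the libraries pooled, a ratio of 16.2 (10.1–27.5). In sham it had 7.73 and in stroke 4.93 cut sites per 1000000 in glutamatergic nuclei, beside 0.437 and 0.416 in GABAergic nuclei. Pooled values in the nucleus gate were 5.18 (4.45–6.0002) and 1.13 (0.822–1.52). Upper layer nuclei had 11.3 (9.15–13.7) and deep layer nuclei 4.11 (2.60–6.16), where the upper layer value came from 99 cut sites in sham and 1 in stroke. The same layers had 5.35 (4.33–6.54) and 4.55 (3.46–5.89) in the nucleus gate, with overlap. No cut site fell in this window in astrocytes, for which the interval reached 0.219, 12 fell in it in spiny projection nuclei, and 6 each in vascular and oligodendrocyte nuclei, at 1.74 (0.638–3.78) and 1.26 (0.462–2.74). Its stretch had 35% GC and held none of the 5 motifs.

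Window B, 37012 bp from the start, separated striatal from Lhx6 neurons. It had 7.31 cut sites per 1000000 (6.38–8.34) in glutamatergic and 2.69 (2.23–3.22) in GABAergic nuclei. Within GABAergic nuclei it had 4.79 (3.88–5.86) in spiny projection nuclei and 1.12 (0.511–2.13) in Adarb2 interneurons. In Lhx6 interneurons 0 cut sites were counted, for which the interval reached 0.370. A similar pattern was seen 27012 bp from the start, with 5.25 (4.29–6.36) in spiny projection and 0.201 (0.0243–0.725) in Lhx6 nuclei. Window C, 44012 bp from the start, had 5.42 (4.62–6.31) in glutamatergic and 0.973 (0.704–1.31) in GABAergic nuclei, and was higher in deep layer nuclei, 7.68 (5.56–10.3), than in spiny projection nuclei, 1.56 (1.06–2.22). CAGATG matched 1 time in window B and 2 times in window C, and 17.3% of 200000 open stretches of 200 bases held it.

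The 2 Sv2b windows with more cut sites in GABAergic nuclei lay at the far end of the locus. The window 191012 bp from the start, inside an intron, had 5.22 (3.90–6.84) in Lhx6 interneurons, 2.86 (1.81–4.29) in Adarb2 interneurons and 1.67 (1.15–2.34) in spiny projection nuclei, the reverse of the order over the whole gene. Of these intervals only those of Lhx6 and spiny projection nuclei were apart. It had 4.95 in sham and 5.67 in stroke in Lhx6 interneurons. The nucleus gate gave 3.59 (2.30–5.34), 3.01 (1.86–4.59) and 1.69 (1.17–2.36) for the 3 subclasses, all with overlap. In sham of that gate Adarb2 interneurons, at 3.82, stood above Lhx6 interneurons, at 3.29. The other window lay 198512 bp from the start, outside the gene.

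Sv2c windows A, B and C are chr13:96131141-96131340, chr13:96024001-96024200 and chr13:96011300-96011499.
Sv2c intronic window A: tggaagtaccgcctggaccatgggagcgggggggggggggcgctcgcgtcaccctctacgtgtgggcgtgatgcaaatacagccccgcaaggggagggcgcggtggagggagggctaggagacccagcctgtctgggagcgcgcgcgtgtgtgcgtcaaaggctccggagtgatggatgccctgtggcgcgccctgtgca
Sv2c intronic window B: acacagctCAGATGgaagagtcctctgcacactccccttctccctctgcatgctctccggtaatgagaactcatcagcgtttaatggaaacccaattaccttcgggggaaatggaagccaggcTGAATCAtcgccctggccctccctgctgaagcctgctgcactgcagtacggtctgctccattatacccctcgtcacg
Sv2c intronic window C: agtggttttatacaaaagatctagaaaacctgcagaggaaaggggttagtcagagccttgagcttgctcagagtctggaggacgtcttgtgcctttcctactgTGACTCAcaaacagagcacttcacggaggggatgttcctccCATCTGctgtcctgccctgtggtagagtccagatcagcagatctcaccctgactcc

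Window A of Sv2c, 1327 bp from the start, had the most cut sites of the locus. It had 8.83 cut sites per 1000000 (7.57–10.2) in spiny projection nuclei and 6.47 (4.83–8.48) in Adarb2 interneurons, beside 2.61 (1.70–3.82) in Lhx6 interneurons and 3.12 (2.52–3.82) in glutamatergic nuclei. In spiny projection nuclei it had 8.90 in sham and 8.63 in stroke, and in Adarb2 interneurons 8.90 and 2.35, the latter from 7 cut sites. The window that holds the transcription start likewise had 6.61 (5.53–7.84) in spiny projection and 0.903 (0.413–1.71) in Lhx6 nuclei.

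Window B, 108327 bp from the start, was shared by the GABAergic subclasses and nearly closed in glutamatergic nuclei. It had 2.67 (2.00–3.50) in spiny projection, 2.61 (1.70–3.82) in Lhx6 and 3.73 (2.52–5.33) in Adarb2 nuclei, and 0.166 (0.0539–0.388) in glutamatergic nuclei, a glutamatergic to GABAergic ratio of 0.0565 (0.0180–0.135). Window C, 121327 bp from the start, peaked in spiny projection nuclei at 9.08 (7.80–10.5), beside 3.41 (2.36–4.77) in Lhx6 and 2.86 (1.81–4.29) in Adarb2 interneurons. TGANTCA and CAGATG each matched 1 time in window B and 1 time in window C, where 7.73% and 17.3% of open stretches held them. The TGANTCA match read TGAATCA in window B and TGACTCA in window C.

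**Figure D3:**
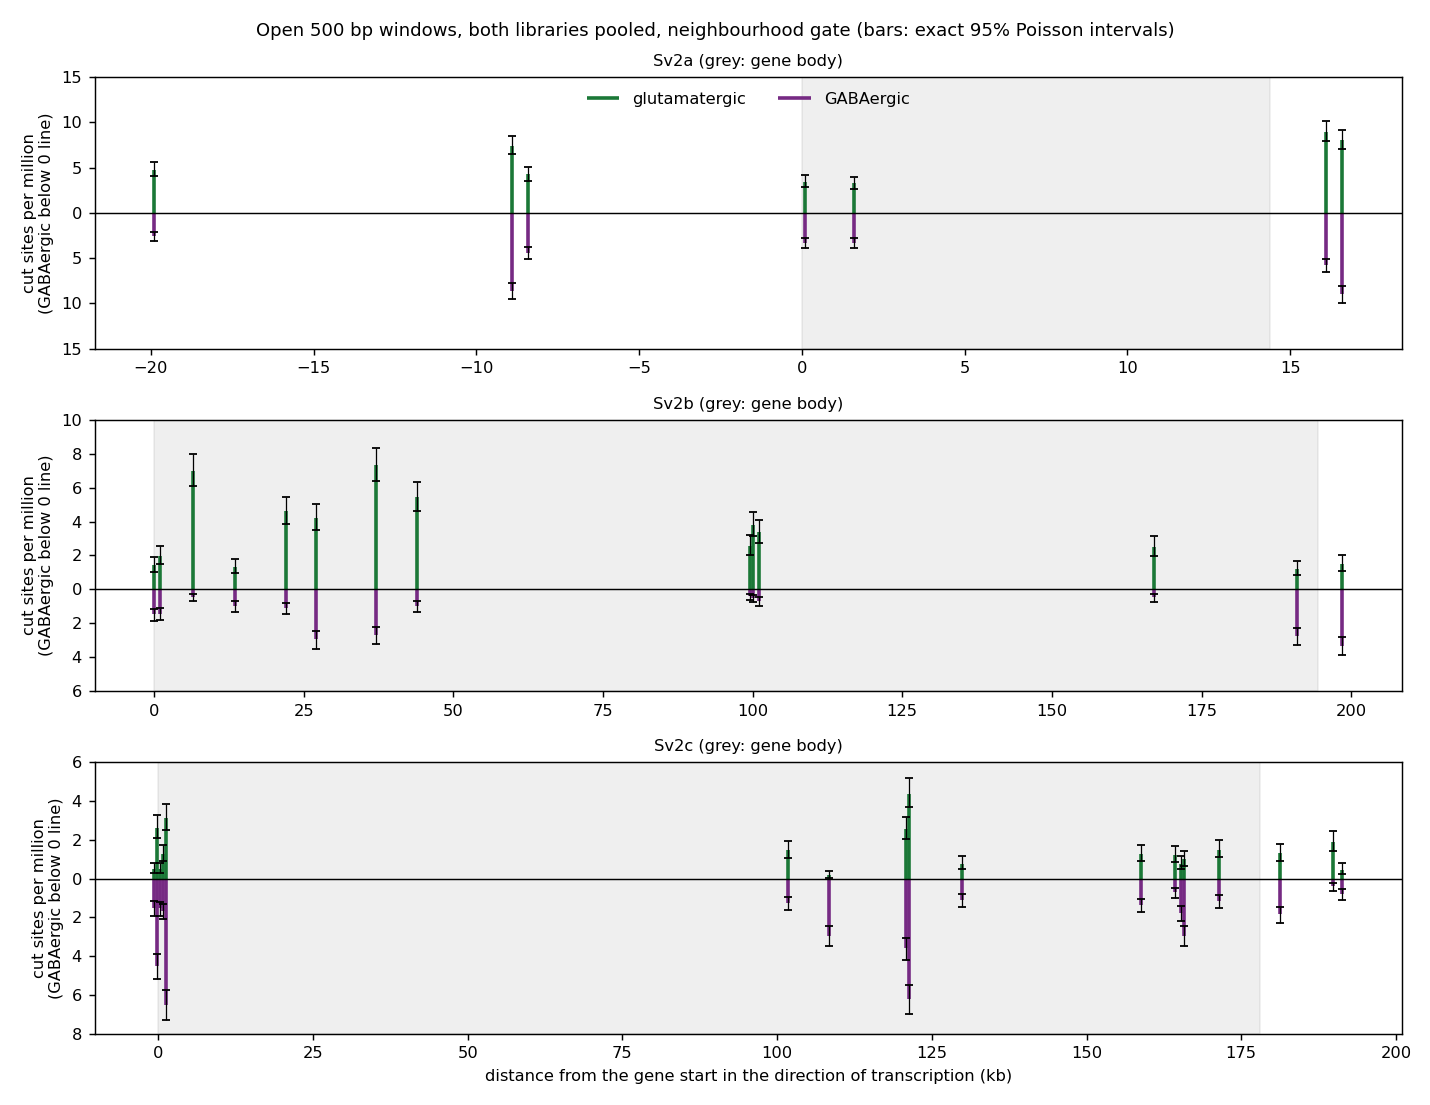
Cut sites per 1000000 (vertical axes) in the open 500 bp windows of Sv2a, Sv2b and Sv2c reported here (18 of the 19 of Sv2c) against the distance in kb from the gene start in the direction of transcription, glutamatergic nuclei above the 0 line in green and GABAergic nuclei below it in purple, libraries pooled, bars for exact 95% Poisson intervals, gene bodies in grey. At Sv2b the glutamatergic bars reach 6.98 and 7.31 where the GABAergic bars are at 0.430 and 2.69.

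**Figure D4:**
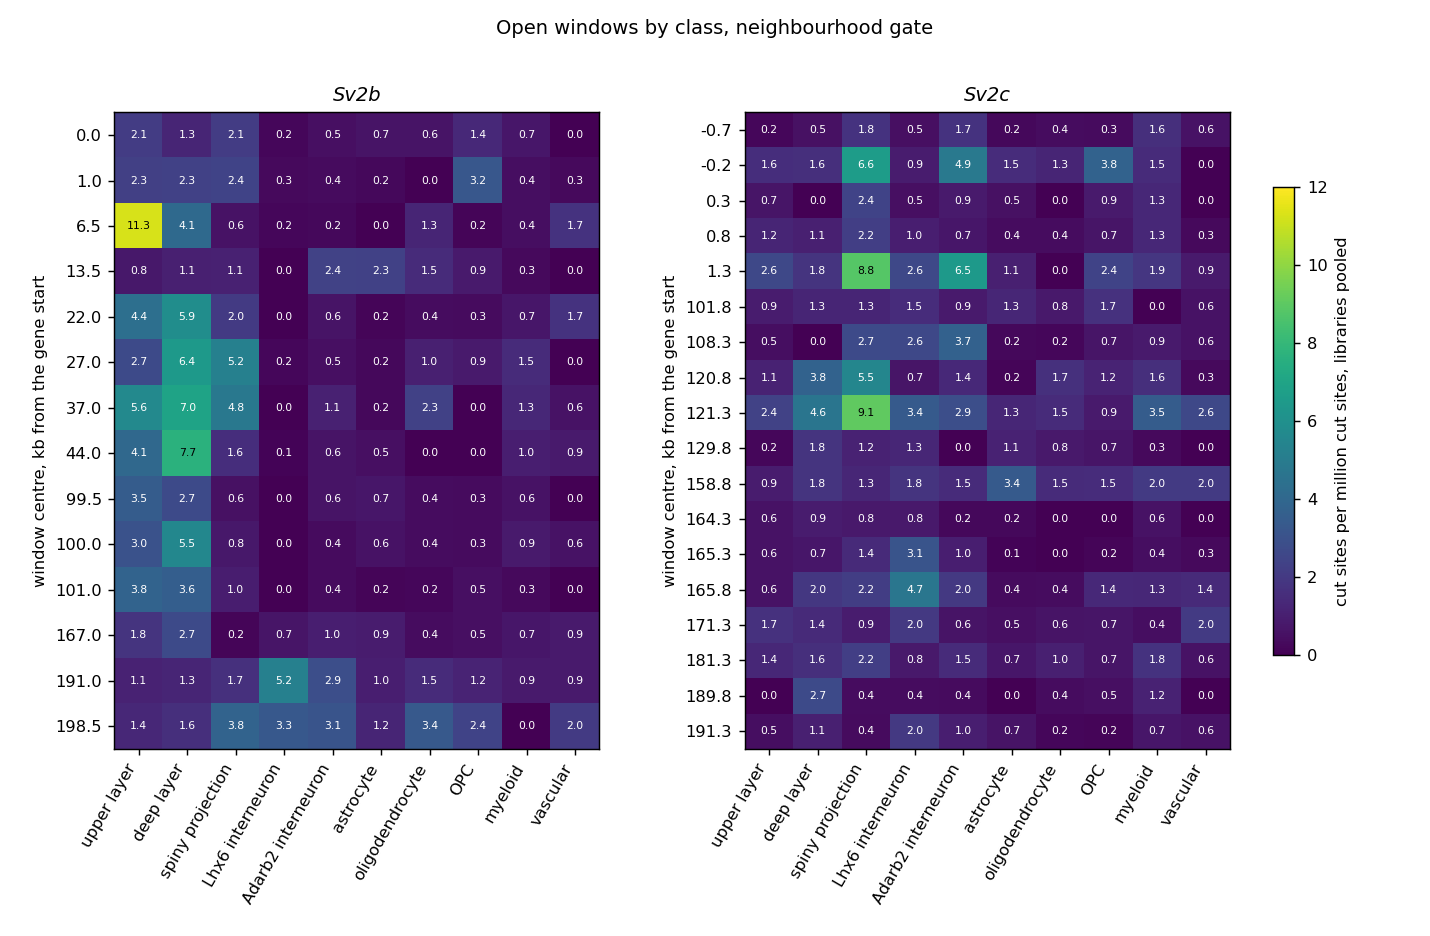
Cut sites per 1000000 cut sites (colour and printed value) in the same open windows of Sv2b and Sv2c (rows, by the distance in kb of the window's centre from the gene start) for 5 neuronal subclasses and 5 other classes (columns), libraries pooled. The 11.3 of upper layer nuclei in Sv2b window A rests on 99 cut sites of sham and 1 of stroke, and the Lhx6 column is near 0 over the Sv2b windows between the promoter and 101012 bp.

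The class differences were not limited to the open windows. Over the 13 open windows counted with Sv2b the glutamatergic to GABAergic ratio of cut sites was 2.84 (2.55–3.18) in sham and 2.70 (2.31–3.17) in stroke, and over the other 381 windows it was 2.30 (2.18–2.43) and 2.04 (1.89–2.21). For Sv2c the open windows gave 0.711 (0.645–0.784) and 0.924 (0.799–1.07), nearer to 1 than the 345 other windows at 0.276 (0.254–0.300) and 0.393 (0.350–0.442). For Sv2c, then, the low signal spread between the open windows carried the larger class ratio.

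Between the libraries the levels of the 3 genes over all kept nuclei moved by less than 1.5-fold. The stroke to sham ratio was 0.783 (0.731–0.838) for Sv2a, 0.924 (0.898–0.951) for Sv2b and 1.06 (1.02–1.101) for Sv2c, where 9.28% of 20011 genes passed 1.5-fold and the median gene stood at −0.04 on the log2 scale. In summed nuclei, fewer nuclei of a class and less accessibility per nucleus cannot be told apart, and glutamatergic nuclei fell from 13.6% to 6.57% and GABAergic nuclei from 18.9% to 13.6% of kept nuclei between sham and stroke. With all called barcodes in place of the kept ones the ratios were 0.615, 0.747 and 0.994, so Sv2a was then past the fold. The share of all genes past it was not computed for these barcodes.

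Within glutamatergic nuclei as a whole the Sv2b ratio had an interval that held 1, and Sv2c was higher in stroke. The stroke to sham ratio of Sv2b was 1.03 (0.955–1.11), that of Sv2c 1.36 (1.19–1.56) and that of Sv2a 0.757 (0.600–0.947), none past 1.5-fold, which 8% of genes passed. Over the promoter alone the Sv2c ratio lay under 1, at 0.794 (0.434–1.38), and scaled to promoter fragments it was 1.52 (1.33–1.74), past the fold. That scaling moved the median of all genes from −0.06 to 0.10 on the log2 scale, and the share past the fold under it was not computed. For unscaled gene bodies the nucleus gate gave 0.976 (0.910–1.046), 1.12 (1.002–1.26) and 0.861 (0.701–1.053) for Sv2b, Sv2c and Sv2a, where 6.4% of genes passed. Beside this, the upper layer nuclei within the class fell from 362 to 33 while deep layer nuclei numbered 107 and 120, and the summed GABAergic marker list rose from 628 to 696 CPM, with 12 of 19 genes higher in stroke. The part of these shifts in the Sv2 ratios was not tested. By layer Sv2b went both ways in the neighbourhood gate, with 0.695 (0.510–0.927) in upper and 1.19 (1.02–1.40) in deep layer nuclei, beside 1.045 (0.939–1.16) and 0.948 (0.854–1.053) in the nucleus gate. The stroke to sham ratio of Sv2c was 1.06 (0.791–1.42) within deep layer and 1.45 (0.924–2.18) within upper layer nuclei, and in the nucleus gate, where upper layer nuclei went from 490 to 193 and deep layer nuclei from 278 to 167, it was 1.45 (1.19–1.747) and 0.911 (0.766–1.08). Sv2a was lower in stroke past the fold in both layers, at −1.13 on the log2 scale in upper and −0.67 in deep layer nuclei. These values rest on 149 and 5 fragments and on 43 and 32, where 34.1% and 18.5% of genes passed 1.5-fold in either direction. Lower in stroke past the fold were 20.8% and 11.6% of genes. The nucleus gate gave −0.11 and −0.23 for Sv2a, neither past the fold.

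Within GABAergic nuclei the ratios were 1.15 (1.047–1.254) for Sv2b, 1.002 (0.931–1.08) for Sv2c and 0.929 (0.798–1.08) for Sv2a, where 5.2% of genes passed the fold, and the nucleus gate, where 5.32% passed, gave 1.049, 1.09 and 0.851. By subclass Sv2b stood at 1.23 (1.096–1.385) in spiny projection nuclei, 1.23 (0.906–1.65) in Lhx6 interneurons and 1.41 (1.104–1.804) in Adarb2 interneurons. None of the 3 genes passed the fold in these subclasses of the neighbourhood gate, where 10.9%, 11.8% and 12.9% of genes did. In the nucleus gate Sv2b stood at 1.14 (1.01–1.27), 1.03 and 1.19, and Sv2a in Adarb2 interneurons passed the fold at 0.560 (0.352–0.866), from 88 and 28 fragments, where 17.2% of genes passed, beside 1.17 (0.846–1.62) in the neighbourhood gate. The share of 17.2% counts both directions, and 12.3% of genes were lower in stroke past the fold. Spiny projection nuclei fell from 531 in sham to 204 in stroke, and their summed GABAergic marker list from 2490 to 2008 CPM.

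Sv2c was higher in stroke in several non-neuronal classes of the neighbourhood gate, of which oligodendrocytes alone also had an interval above 1 in the nucleus gate. In astrocytes its stroke to sham ratio was 1.74 (1.38–2.20), where 12.5% of genes passed 1.5-fold, in oligodendrocytes 1.501 (1.08–2.12), where 20.7% passed, in OPC 1.45 (1.08–1.94), where 14.9% passed, and in vascular nuclei 2.26 (1.34–4.02), where 23.5% passed. These shares count both directions. Higher in stroke past the fold were 7.08%, 6.29%, 4.9% and 10.4% of genes in the same 4 classes. For Sv2c the nucleus gate gave ratios of 0.984 (0.831–1.17), 1.17 (1.01–1.35), 1.06 (0.914–1.23) and 1.003 (0.854–1.18). The myeloid class of that gate had a ratio of 1.34 (1.17–1.54), beside 0.992 (0.608–1.73) in the neighbourhood gate from 17 and 271 fragments. Only 17 Sv2c fragments lay behind the sham level of vascular nuclei, in which the glutamatergic marker list rose from 352 to 482 CPM with 15 of 17 genes higher in stroke and 5 at 0 in sham (Neurod6, Tbr1, Fezf2, Bhlhe22 and Neurod1), the GABAergic list from 524 to 664 with 15 of 19 higher, and the vascular list went from 1351 to 1144. In astrocytes the glutamatergic list went from 717 to 644 and the GABAergic list from 713 to 739, with 14 of 19 genes higher, while the astrocyte list went from 2907 to 2678. The median depth of astrocyte nuclei was 5402.5 fragments in sham and 7873 in stroke. The part of these markers and of depth in the Sv2c ratios was not tested.

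Sv2b in astrocytes depended on the gate. Its stroke to sham ratio was 1.27 (1.053–1.54) in the neighbourhood gate and 0.655 (0.575–0.746) in the nucleus gate, where 11.4% of genes passed 1.5-fold and 9 of 30 vesicle and release genes were lower past it with 0 higher, beside 6.05% of all genes lower. In the neighbourhood gate 1 of the 30 was lower, beside 5.4% of all genes. The sham level was 120.6 in the nucleus gate and 50.8 in the neighbourhood gate. In oligodendrocytes, OPC, myeloid and vascular nuclei of the neighbourhood gate Sv2b stood at 1.03, 0.857, 0.895 and 0.764, with intervals that held 1. Sv2a stood at 0.531 (0.293–0.935) in OPC, past the fold, from 38 and 20 fragments, where 14.9% of genes passed in either direction and 10% as lower in stroke. In myeloid nuclei, where 41% of genes passed the fold, the sham level of Sv2a rested on 2 fragments. Sv2a in oligodendrocyte and vascular nuclei of the neighbourhood gate had fewer than the 50 fragments needed for a ratio to be counted. Under the nucleus gate Sv2a was past the fold at 0.622 (0.455–0.844) in OPC, where 10.9% of genes passed, and at 0.638 (0.465–0.870) in vascular nuclei, where 11.2% passed. Lower in stroke past the fold were 6.13% of genes in OPC and 5.51% in vascular nuclei of that gate.

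**Figure D5:**
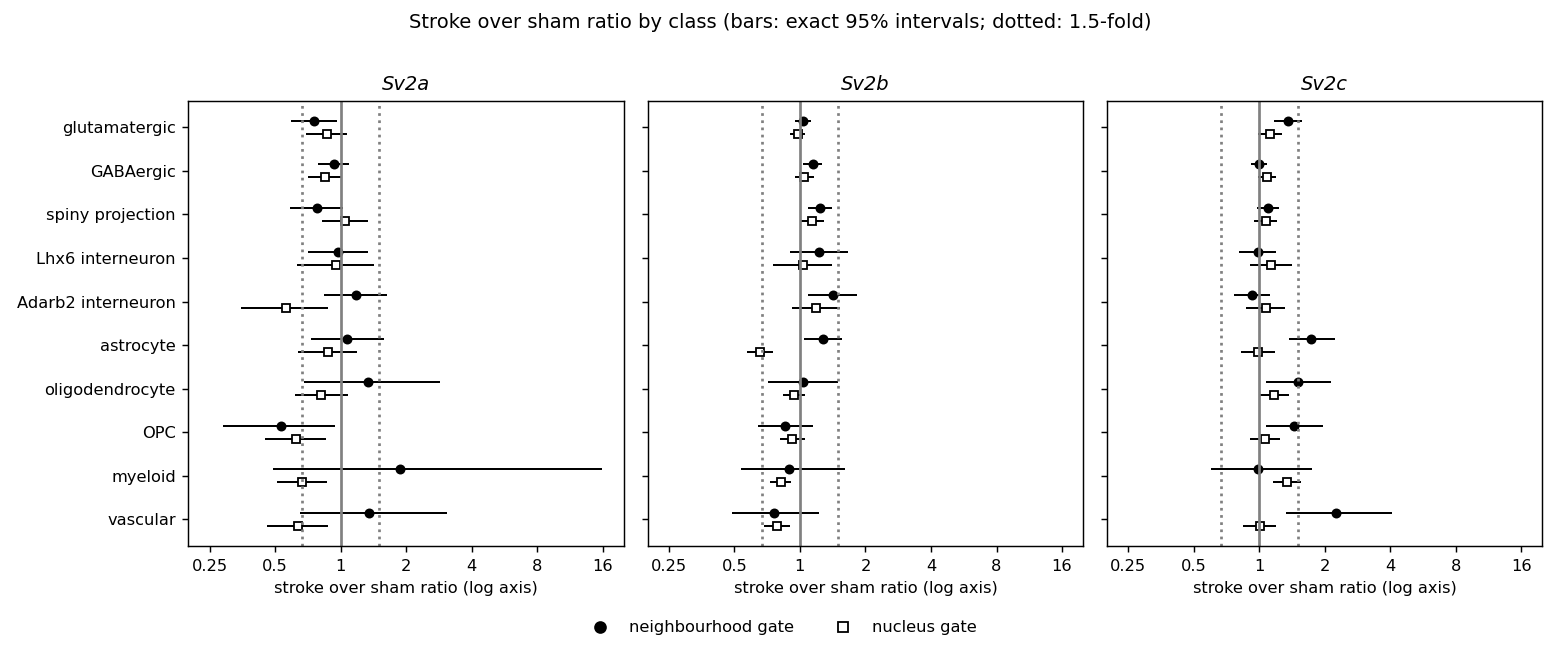
Stroke to sham ratio (horizontal log axes) of Sv2a, Sv2b and Sv2c in 10 classes, neighbourhood gate as filled circles and nucleus gate as open squares, bars for exact 95% intervals, dotted lines at 1.5-fold in either direction. Sv2b in glutamatergic nuclei sits at 1.03 and 0.976, and the 2 gates lie on opposite sides of 1 for Sv2b in astrocytes, at 1.27 and 0.655.

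Between the libraries a minority of the open windows moved by intervals that left out 1. The same share over open windows of other genes was not computed, so these counts have no background beside them. In glutamatergic nuclei 1 of the 14 Sv2b windows was higher in stroke and 1 lower, 4 of the 19 Sv2c windows were higher and 1 lower, and of the 7 Sv2a windows 0 were higher and 1 lower. In GABAergic nuclei 2 Sv2b windows were higher and 0 lower, 2 Sv2c windows higher and 3 lower, and 1 Sv2a window higher and 0 lower. The nucleus gate gave 1 and 1, 5 and 1, and 0 and 0 in glutamatergic nuclei for Sv2b, Sv2c and Sv2a, and 0 and 1, 1 and 1, and 0 and 3 in GABAergic nuclei, so the GABAergic counts of Sv2b and Sv2a turned with the gate. The Sv2b window higher in glutamatergic nuclei, which holds the gene start, had a ratio of 2.15 (1.11–4.09), and 1.29 (0.740–2.19) in the nucleus gate, where the window 167012 bp from the start was the higher one at 1.91 (1.15–3.18). The windows described next were chosen after their values were seen. In glutamatergic nuclei Sv2b window A had a stroke to sham ratio of 0.638 (0.440–0.904), and 0.567 (0.386–0.817) in the nucleus gate. Within upper layer nuclei it went from 12.03 cut sites per 1000000 (9.78–14.6) in sham to 1.51 (0.0383–8.44) in stroke, and within deep layer nuclei from 4.29 (2.14–7.68) to 3.95 (2.04–6.90). Under the nucleus gate it went from 6.22 (4.93–7.74) to 3.06 (1.71–5.04) in upper layer and from 4.62 to 4.45 in deep layer nuclei. Sv2c window C went the other way, with 1.82 (1.26–2.61) and 1.65 (1.07–2.53), as did its neighbour 120827 bp from the start, with 3.09 (1.92–4.97) and 2.21 (1.35–3.61). Window C went from 2.73 (1.098–5.63) to 6.26 (3.77–9.77) within deep layer nuclei and from 2.31 (1.39–3.61) to 3.03 (0.367–10.9) within upper layer nuclei. The fall in the number of upper layer nuclei in stroke stands beside all 3 windows, and its part was not tested. In GABAergic nuclei the window at the Sv2c start had 0.642 (0.453–0.896), and 0.685 (0.468–0.986) in the nucleus gate.

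The Sv2 genes were set beside 30 other genes of synaptic vesicles and release. These comprise vesicle membrane genes such as Syt1, a calcium sensor, and Syp, fusion genes such as Snap25 and Stx1a of the SNARE complex, and active zone genes such as Bsn and Rims1. Between glutamatergic and GABAergic nuclei 1 of the 30, Stx1a, was higher in glutamatergic nuclei past 1.5-fold in both libraries, beside 5.01% of all genes, at ratios of 2.46 and 1.87, and 1, Syt2, was higher in GABAergic nuclei, beside 5.69% of all genes, at 0.601 and 0.625. Under the nucleus gate Stx1a alone passed, and 0 of the 30 were higher in GABAergic nuclei, beside 3.25% of all genes. The median of the list was 0.01 on the log2 scale beside −0.09 for all genes. Against non-neuronal nuclei 16 of the 30 were higher in neurons, beside 9.64% of all genes, among them Cplx2 at 3.44 and 2.57 and Syt1 at 2.99 and 2.83, with a median of 0.77 beside −0.04, and in the nucleus gate 0 of the 30 were, beside 0.406% of all genes. Between spiny projection and Lhx6 nuclei 2 of the 30, Cplx2 and Erc2, were higher in spiny projection nuclei past 1.5-fold, beside 7.39% of all genes, and in the nucleus gate Cplx2 alone was, beside 3.88%.

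Between the libraries 0 of the 30 genes passed 1.5-fold over all kept nuclei, beside 9.28% of all genes, with a median of −0.25 on the log2 scale beside −0.04 for all genes, and the highest was Synpr, a vesicle protein, at 0.15. In glutamatergic nuclei Synpr was higher in stroke at 0.66, with a median of −0.17 beside −0.06, where 4.35% of all genes were higher and 3.65% lower past the fold. The nucleus gate had 0 of the 30 higher and 1 lower there, beside 3.5% and 2.9% of all genes. In GABAergic nuclei 0 of the 30 passed the fold, beside 5.2% of all genes, from Rims2 at 0.22 to Syngr3 at −0.53, with a median of −0.10 beside −0.04. On the same scale Sv2b stood at 0.05 and 0.20, Sv2c at 0.45 and 0.00, and Sv2a at −0.40 and −0.10 in glutamatergic and GABAergic nuclei.

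Across 10 classes in 2 libraries, 20 points in all, the genes whose log2 level most resembled that of Sv2b were Slc24a4 (Pearson r = 0.89), Zranb3 (0.86) and Tusc3 (0.85). For Sv2c they were Mctp1 (0.86), Spock3 (0.85) and Map3k13 (0.85), and for Sv2a Rapgef4 (0.86), Tbcd (0.85) and Ncor1 (0.85), out of 14657 genes. In the nucleus gate the leading genes were Fap (0.93) for Sv2b, Catspere2 (0.90) for Sv2c and 4930404H24Rik (0.88) for Sv2a, and Map3k13 was again among the 3 nearest to Sv2c. Among the members r was 0.47 between Sv2a and Sv2c, 0.07 between Sv2a and Sv2b and 0.09 between Sv2b and Sv2c, beside 0.46, 0.01 and −0.29 in the nucleus gate. The points of a library share its depth and preparation, so these values are descriptions only.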

How the data were processed

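Nuclei from 4 pooled sham brains and from 4 pooled ipsilateral stroke hemispheres were profiled by single-cell ATAC-seq, 1 library per condition. The authors deposited, per library, a list of deduplicated fragments with the count of read pairs behind each, and per-barcode counts with a cell call (column values 0 or 1), made with Cell Ranger ATAC 2.1.0 against an mm10 reference. Fragment ends in such lists are already moved to the Tn5 cut site. No per-cell annotation was used here.

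The sham list held 76959104 fragments and the stroke list 96465679. Fragments were counted over the gene body plus 2 kb upstream (GENCODE M21 models) and over promoters, as CPM of the same nuclei. With 1 library per group no differential test was run; Poisson intervals and intervals of ratios are exact (scipy 1.17.1), and a gene was counted as past the fold at 1.5-fold with at least 50 fragments. Doublets were not called; nuclei seeded by several marker lists were left out of the nucleus gate. That gate took seeds at a Poisson tail under 0.01 and a posterior over 0.9. The neighbourhood gate used 30 neighbours, the nucleus included (scikit-learn 1.9.0). They were found in 30 computed components less the first, over 200000 bins, leaving out 100000 bp around each Sv2 gene. It took a neuronal list at 1.25 times and another list at 2 times its level over all nuclei, and its thresholds were set before Sv2 values under it were viewed. Scripts were tested on simulated data. The text names the 3 members, vesicle genes with the highest and lowest log2 ratio, and the 3 genes of highest correlation per member. The other vesicle genes named as examples, and the shown windows, were chosen after their values were seen. Some named-gene values and 1 open window of Sv2c are not reported here. The members and lists were chosen with earlier results of these data known. Alternatives changed the gate, the nucleus filter, the counted feature and the scaling.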

Additional observations from a re-analysis of the deposited data

Results flagged for a closer look

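The stroke to sham ratio of Sv2b lay on opposite sides of 1 in different classes, by intervals that left out 1, and the difference between classes was not tested. In the nucleus gate it was 1.14 (1.01–1.27) in spiny projection nuclei, and 0.655 (0.575–0.746) in astrocytes, 0.817 (0.740–0.9004) in myeloid and 0.784 (0.691–0.889) in vascular nuclei. In the neighbourhood gate it was 1.15 (1.047–1.254) in GABAergic, 1.27 (1.053–1.54) in astrocyte, 1.19 (1.02–1.40) in deep layer, 1.23 (1.096–1.385) in spiny projection and 1.41 (1.104–1.804) in Adarb2 nuclei, and 0.695 (0.510–0.927) in upper layer nuclei, of which the stroke library held 33 and which stood at 1.045 (0.939–1.16) in the nucleus gate. The astrocyte ratio changed its side of 1 between the gates. In the nucleus gate 9 of the 30 vesicle and release genes were lower in stroke astrocytes past 1.5-fold, where 6.05% of all genes were, and 1 was in the neighbourhood gate, where 5.4% of all genes were. Myeloid and vascular nuclei of the neighbourhood gate had Sv2b ratios of 0.895 and 0.764 with intervals that held 1.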

How the results depend on the processing

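No paired analysis was possible because sham and stroke each comprised 1 library. Each alternative setting was applied to sham and to stroke, which gave 22 ratios per gene. Sv2b stayed higher in glutamatergic and Sv2c in GABAergic nuclei in 22 of 22 ratios, past 1.5-fold in 20 and 21 of them. The lowest Sv2b ratio, 1.004, was no more than level. The glutamatergic to GABAergic ratio of Sv2a stayed under 1 in 21 of 22, between 0.604 (stricter neighbourhood gate, stroke) and 1.02. The glutamatergic to GABAergic ratio of Sv2b, 2.096 in sham and 1.95 in stroke in the nucleus gate, was 1.93 in sham with seeds only, 1.39 and 1.004 over the promoter alone, 2.41 and 2.16 in the neighbourhood gate, 2.38 and 2.21 with its looser thresholds, and 2.32 in sham with stricter ones. The GABAergic to glutamatergic ratio of Sv2c, 1.82 and 1.76, was 2.55 in the neighbourhood gate in sham, 2.43 with looser and 2.70 and 2.14 with stricter thresholds, and 1.18 over the promoter in stroke. Over all nuclei the stroke to sham ratio of Sv2a, Sv2b and Sv2c was 0.615, 0.747 and 0.994 with all called barcodes, 0.847, 0.781 and 0.956 over promoters, and 0.859, 1.01 and 1.16 scaled to promoter fragments.

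In glutamatergic nuclei of the nucleus gate that ratio was 1.11, 0.7504 and 1.37 over promoters, and scaled to promoter fragments Sv2b stood at 1.12 and Sv2c at 1.296. In the neighbourhood gate Sv2b was 1.15 when scaled, and Sv2c 0.794 over promoters and 1.52 when scaled, which moved the median of all genes from −0.06 to 0.10 on the log2 scale. Sv2a was 0.644 with the stricter neighbourhood gate, and Sv2c 1.36 with that gate and 1.38 with looser thresholds. In GABAergic nuclei of the nucleus gate Sv2b was 1.17 scaled to promoter fragments and Sv2c 0.920 over promoters and 1.22 scaled. In the neighbourhood gate Sv2a was 1.17 over promoters, Sv2b 1.21 over promoters and 1.24 scaled, and Sv2c 0.779 over promoters. Sv2b was 1.16 with the stricter gate, and Sv2c was 1.002, 0.996 and 0.995 in the neighbourhood gate, its stricter and its looser form. Between the gates 16 of 36 within-class ratios changed their side of 1, of which 1, Sv2b in astrocytes, had intervals that left out 1 in both. Among ratios past 1.5-fold in the nucleus gate, directions turned for Sv2b in astrocytes, from 0.655 to 1.27, 1.17 and 1.24 under these 3 gates, for Sv2a in vascular nuclei, from 0.638 to 1.35 (0.658–3.06) in the neighbourhood gate, which rests on 10 and 36 fragments, fewer than the minimum of 50, and for Sv2a in Adarb2 interneurons, from 0.560 to 1.43 with seeds only and 1.17, 1.16 and 1.01 under these gates. The cause was not tested. Of the 30 vesicle genes in glutamatergic nuclei, 1 was higher in stroke over promoters, 1 when scaled to promoter fragments and 1 in the neighbourhood gate, where the nucleus gate had 0, and 2 were lower over promoters and 0 when scaled, where it had 1. In the neighbourhood gate 1 was lower, 4 were lower over promoters and 0 when scaled, with 1 higher in each of these counts. The unscaled gene-body counts stand beside 3.5% of all genes higher and 2.9% lower in the nucleus gate, and 4.35% and 3.65% in the neighbourhood gate. Shares over promoters and when scaled were not computed. The median of all genes was −0.19 over promoters and 0.14 when scaled in the nucleus gate, and −0.15 and 0.10 in the neighbourhood gate, on the log2 scale. Open windows of Sv2a higher in glutamatergic nuclei in both libraries numbered 1 in the neighbourhood gate and 0 in the nucleus gate, and those higher in GABAergic nuclei 0 and 1.

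Replicate error could not be estimated, and intervals cover counting error only. Few fragments stood behind the myeloid nuclei of sham (25 nuclei), the upper layer nuclei of stroke (33) and every promoter value of a subclass. Gate classes are ranges of marker signal, and over 50% of nuclei had no class in the neighbourhood gate.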
